A study of Mus musculus with 51 samples.

Results

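The 5hmC and H3K27me3 peaks of VitC-treated MC3T3-E1 pre-osteoblasts were compared to ask whether the 2 marks occupy the same DNA, neighbouring DNA or different genes. MC3T3-E1 is a clonal line of mouse calvarial osteoblast precursors from C57BL/6 mice. All cells were at passages 7 to 10 and were grown in VitC-free medium before treatment. They then received β-glycerophosphate at 4 mM together with VitC at 50 µg/ml (VitC+) or without it (VitC-). Each mark had 2 samples per group in the labels, and the authors deposited 1 peak list per mark and group. The methods describe peak calling on pooled samples for 5hmC, with another number of samples than the labels give, and do not say so for the histone marks. The peak names of the H3K27me3 lists carry a single run number, so it is not known whether these lists hold 1 sample or both. Femur of Gulotm1Mae mice (Gulo knockout, which cannot make VitC), kept on VitC and taken at 20 weeks of age, is used beside the cell line for its 5hmC peaks and its expression. The 2 lists examined, chosen by mark and treatment only, held 257696 5hmC peaks and 86322 H3K27me3 peaks, or 344018 of the 1972767 peaks in the 10 lists of the series. On chromosomes 1 to 19 and X, which are used throughout, these were 257538 and 86199 peaks.

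The culture time differs between sources. The labels give 28 days for all MC3T3-E1 samples, while the methods and the peak names of the histone lists give 7 days, so culture day and mark cannot be told apart in any comparison between the marks. With 1 list per mark there is no replicate error, and no difference between lists could be tested. Shares and ratios are therefore descriptions of these lists. A base in both lists need not carry both marks in the same cell.

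5-hydroxymethylcytosine (5hmC) is made from methylated cytosine by the TET dioxygenases, mostly at CG dinucleotides, and is found in enhancers and in the bodies of transcribed genes. Trimethylation of lysine 27 on histone H3 (H3K27me3) is laid down by Polycomb repressive complex 2 (PRC2), often over broad domains, and marks silenced developmental genes. It is removed by the KDM6 demethylases, which belong to the same wider family of dioxygenases as the TET enzymes and like them can use VitC as a cofactor.

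Promoter peaks of 5hmC are shown first, chosen as the strongest with a summit inside H3K27me3 and the strongest with a summit in none. Each window holds the summit and 60 bases either side of it, on the plus strand of the GRCm38.p6 reference (RefSeq, the mm10 assembly of the peak lists), 5′ to 3′, with CG dinucleotides, the main substrate of the TET enzymes, in capitals. The first 3 are the promoter peaks of highest fold enrichment over the local background with a summit inside an H3K27me3 peak, the next 3 are those of highest fold in no H3K27me3 peak, and the last is the highest-fold peak within 30 kb of the start site of Runx2, the master transcription factor of osteoblasts.
Klrg2, chr6:38637521-38637641: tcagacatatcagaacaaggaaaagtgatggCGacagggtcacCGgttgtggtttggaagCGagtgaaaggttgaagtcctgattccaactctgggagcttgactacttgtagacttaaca
Fam189a2, chr19:24031576-24031696: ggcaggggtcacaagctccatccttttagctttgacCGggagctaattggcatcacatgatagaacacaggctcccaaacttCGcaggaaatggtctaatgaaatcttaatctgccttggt
Prrg4, chr2:104848866-104848986: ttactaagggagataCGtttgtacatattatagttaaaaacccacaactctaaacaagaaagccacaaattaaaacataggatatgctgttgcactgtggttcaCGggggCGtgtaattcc
Nsg1, chr5:38158220-38158340: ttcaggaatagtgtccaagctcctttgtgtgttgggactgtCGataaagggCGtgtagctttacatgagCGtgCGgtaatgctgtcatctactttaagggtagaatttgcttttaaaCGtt
Abhd17b, chr19:21654883-21655003: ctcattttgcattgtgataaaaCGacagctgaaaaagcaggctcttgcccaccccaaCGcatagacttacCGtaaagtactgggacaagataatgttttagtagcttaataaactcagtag
Ptprk, chr10:28076764-28076884: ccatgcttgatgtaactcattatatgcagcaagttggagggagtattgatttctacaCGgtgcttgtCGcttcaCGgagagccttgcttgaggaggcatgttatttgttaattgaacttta
Runx2, chr17:44821313-44821433: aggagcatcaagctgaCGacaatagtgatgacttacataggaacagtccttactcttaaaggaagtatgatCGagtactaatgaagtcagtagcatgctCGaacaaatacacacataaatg

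The first 3 summits lay 13 to 199 bp from an edge of H3K27me3. Of all 5hmC summits inside it, 42.3 to 53.0% by class of fold lay within 500 bp of an edge. The folds of the first 3 were 16.3 at Klrg2, 15.8 at Fam189a2 and 15.6 at Prrg4, the highest of 902 promoter peaks inside H3K27me3. Those at Nsg1, Abhd17b and Ptprk were 34.7, 32.6 and 32.5, the highest of 18608 others, and the maximum of a larger set tends to be higher. The Klrg2 summit, 342 bp upstream of the start site, was 51 bp inside the edge of an H3K27me3 peak of 12402 bp. At Fam189a2 the summit lay 617 bp upstream of the start site and 13 bp inside an H3K27me3 peak of 4110 bp. The Prrg4 summit was in an intron, 199 bp inside an H3K27me3 peak of 967 bp, too short for any base to be far from an edge. The summits at Nsg1, Abhd17b and Ptprk were also intronic, 1463, 1634 and 2004 bp downstream of the respective start sites. The Runx2 peak, with a fold of 16.6, lay 6746 bp upstream of the most 5′ Runx2 start site, in an intron of Supt3, which runs through the locus on the other strand. The median fold of promoter peaks was 4.36 for those with a summit inside H3K27me3 and 5.51 for the others.

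Across the genome the marks shared less than their extents would give if placed independently. 5hmC peaks covered 197 Mb (7.49%) and H3K27me3 peaks 145 Mb (5.49%). Only 4.71 Mb were in both, against 10.8 Mb expected from the product of the 2 covered shares, a ratio of 0.434. The shared bases were 2.39% of the 5hmC bases and 3.25% of the H3K27me3 bases. They fell into 12360 stretches with a median length of 316 bp and a longest of 4677 bp. The low ratio was present on each of the 19 autosomes, from 0.220 on chromosome 7 to 0.545 on chromosome 8, with a median of 0.333. Chromosome X went the other way with 3.25, but H3K27me3 covered only 0.0825% of it and the shared stretch was 0.00590 Mb.

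At the scale of neighbourhoods the overlap was higher. When all 5hmC peaks were moved along their chromosomes by a fixed distance, the ratio rose from 0.434 in place to 0.489 at 1 kb, 0.796 at 10 kb, 1.04 at 30 kb, 1.56 at 100 kb and 1.87 at 200 kb (means of both directions). It then fell to 1.67 at 1000 kb and 1.17 at 5000 kb, and did not return to 1, with 1.14 at 10000 kb and 1.22 at 20000 kb. Summing the expectation over chromosomes gave 12.5 Mb in place of 10.8 Mb. The mean ratio was thus below its values at 10000 and 20000 kb up to 30 kb. It was above both of them from 50 kb (1.23) to 4000 kb (1.24). Of the 2454 autosomal windows of 1000 kb, 80.5% held both marks, 1.07 times the product of the 89.6% with 5hmC and the 83.9% with H3K27me3. In windows of 100 kb the share was 35.8%, 1.35 times the product. The covered shares of the marks had a Pearson r of -0.07, -0.01 and 0.38 over windows of 20, 100 and 1000 kb (Spearman rho of 0.06, 0.30 and 0.68), given as a description, since windows share gene density and mappable sequence. Within the 8815 windows of 100 kb that held both, the ratio of shared to expected bases was 0.419. H3K27me3 peaks without 5hmC had the nearest 5hmC peak at a median of 8.63 kb, and 96.0% had one within 100 kb. In the other direction the median was 56.2 kb, with 66.2% within 100 kb. These distances depend on the number of peaks in each list, and no displaced distances were computed. The extents also varied together from chromosome to chromosome. 5hmC ranged from 4.54% of chromosome 14 to 12.2% of chromosome 19, and H3K27me3 from 2.04% to 13.5% of the same chromosomes (Pearson r = 0.836 over 19 autosomes, a description, since chromosomes also differ in gene content and mappable sequence).

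**Figure D1:**
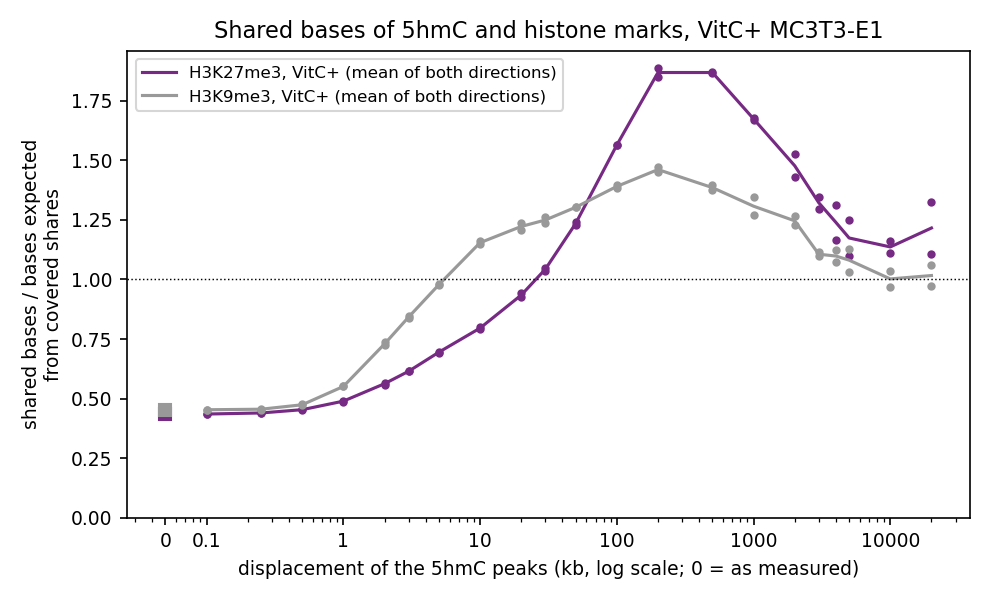
The x axis gives the distance by which VitC+ 5hmC peaks were displaced (kb, log scale, squares at 0 are the measured positions) and the y axis the shared bases divided by those expected from the covered shares. Points are the 2 directions and lines their means; the H3K27me3 curve starts at 0.434, passes 1 between 20 and 30 kb and peaks near 1.87 at 200 to 500 kb, and the H3K9me3 curve starts at 0.454.

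Counted as peaks, 12218 of 257538 5hmC peaks (4.74%) touched H3K27me3 by at least 1 bp. The same peaks displaced by 1 to 5 Mb in either direction gave 8.17 to 12.3%, with a median of 9.87% over 10 displacements. In the other direction, 9645 of 86199 H3K27me3 peaks (11.2%) touched 5hmC, against 18.1 to 24.9% after displacement. The measured share lay below the lowest displaced share for both. The 5hmC peaks that touched H3K27me3 had a median fold of 4.36 and a median length of 445 bp, while those that did not had 5.24 and 539 bp.

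Separation from H3K27me3 increased with the strength of the 5hmC peak. Among the 21924 peaks with a fold under 3, 7.33% touched H3K27me3 (95% exact binomial interval 6.99 to 7.69%, counting error only), inside the displaced range of 6.98 to 11.1%. The share was 5.19% for folds of 4 to 6 and 2.77% for folds of 8 to 12. Of the 20823 peaks with a fold of at least 12, 1.28% touched H3K27me3 (1.13 to 1.44%), although displacement put 11.1 to 17.1% of them on it. The measured share was thus 0.857 times the displaced median in the weakest class and 0.0954 times in the strongest. After displacement the strongest 5hmC peaks touched H3K27me3 more often than the weakest, with medians of 13.4% and 8.56%, but in place they touched it least. Stronger peaks were also longer, at a median of 1529 against 316 bp, which by itself gives more room to touch. The displaced shares therefore do not compare how rich in H3K27me3 the regions around the classes were.

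H3K27me3 domains of all sizes held a similar density of 5hmC. Between 3.14% and 3.59% of the bases were in 5hmC peaks in every length class, from peaks under 500 bp to the 417 peaks of at least 20 kb. By strength of the H3K27me3 peak the density was less even. It was 3.35%, 3.14% and 3.26% for −log10 q under 1.3, 1.3 to 2 and 2 to 3, and 5.24% for the 1021 peaks from 3. By fold it was 7.87% under 2.5, 3.24% for 2.5 to 3, 3.04% for 3 to 3.5 and 4.88% from 3.5. Of the 1813 domains of at least 10 kb, which made up 21.7% of the H3K27me3 bases, 883 held no 5hmC base. The longest, of 118104 bp at chr1:134989671-135107774 over the start site of Lgr6, a receptor of R-spondins, was an exception with 12.6% of its bases in 5hmC. A domain of 97890 bp over Cd207, Clec4f and Vax2 had 1.88%. Lgr6 and Cd207 are named for these domains, after their values were seen.

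The transition was at the border of the domain. Around the 5810 H3K27me3 peaks of at least 5 kb, VitC+ 5hmC covered 7.70% of the bases 19.5 to 20 kb outside, 6.19% of the last 0.5 kb outside, 4.96% of the first 0.5 kb inside and 2.98% between 2 and 2.5 kb inside. The 5hmC list of VitC- cells showed no such fall over the same edges, with 5.87% just outside and 6.32% at 2 to 2.5 kb inside. Among 5hmC summits inside H3K27me3, the median distance to the edge was 699 bp for the 4134 with a fold under 4 and 657 bp for the 4101 with a fold of 4 to 8. It was 436 bp for the 572 with a fold of 8 to 12 and 499 bp for the 79 with a higher fold. The H3K27me3 peaks that held the first and the last of these classes had median lengths of 3761 and 3247 bp. As a share of the distance from edge to middle, the median depth was 0.482, 0.452, 0.376 and 0.370 in order of rising fold. Summits placed evenly would have 0.5, and the classes with a fold under 8 were near this.

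**Figure D2:**
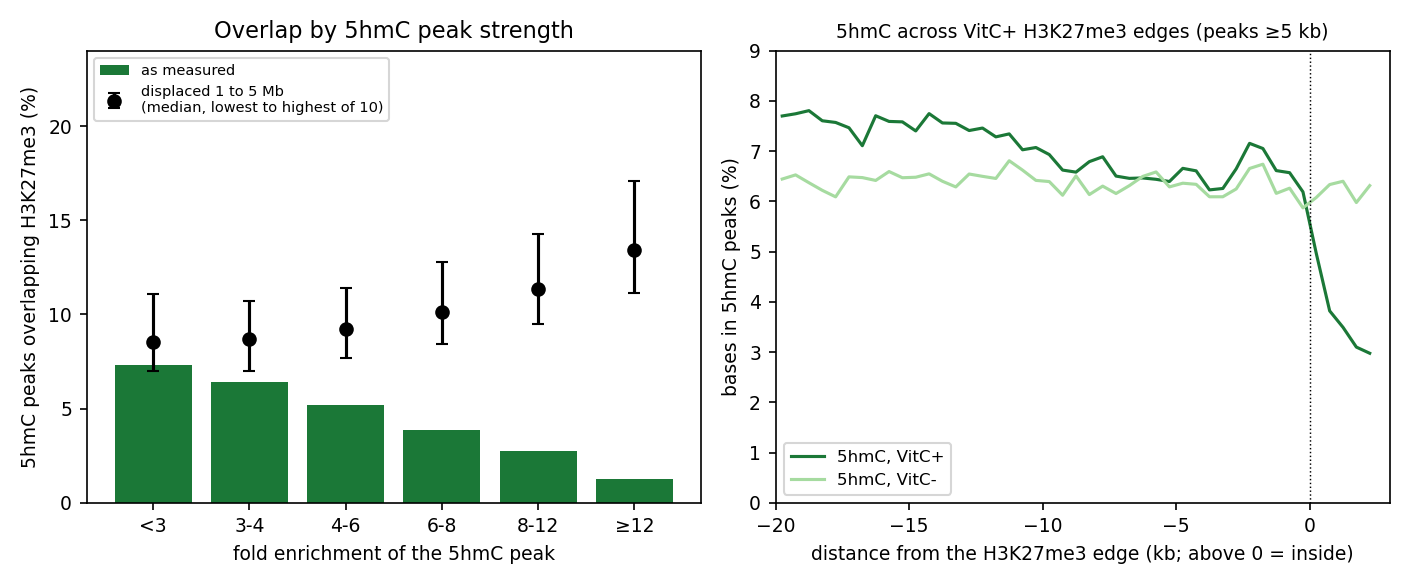
Left, the percentage of VitC+ 5hmC peaks that touched H3K27me3 by class of fold enrichment (bars), with the median and the lowest to highest of 10 displacements (points and lines); the bars fall from 7.33 to 1.28% while the displaced median rises from 8.56 to 13.4%. Right, the percentage of bases in 5hmC peaks by distance from the edges of VitC+ H3K27me3 peaks of at least 5 kb in bins of 0.5 kb, falling from 6.19 to 2.98% for VitC+ 5hmC and staying between 5.87 and 6.81% for VitC- 5hmC.

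The separation was strongest within genes. In gene bodies, 5hmC covered 12.05% and H3K27me3 5.57% of the bases, and the ratio of shared to expected bases was 0.247. Promoters, here 3 kb either side of the start site, had 12.07% and 9.99% and a ratio of 0.348. More than 3 kb outside genes, the shares were 4.40% and 5.05% and the ratio was 0.751. Gene bodies held 55.8% of all 5hmC bases, and 54.5% of H3K27me3 bases lay more than 3 kb from any gene. Both marks were in DNA richer in CG than the 7.73 CG per kb of unmarked bases. 5hmC alone had 13.4, H3K27me3 alone 10.8 and bases with both marks 16.9 CG per kb.

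VitC+ and VitC- lists are given side by side, without a test. In VitC- cells the ratio of shared to expected bases of 5hmC and H3K27me3 was 1.02, against 0.434 in VitC+ cells. The low value went with the 5hmC list, as VitC+ 5hmC had a ratio of 0.442 against VitC- H3K27me3 and VitC- 5hmC one of 1.08 against VitC+ H3K27me3. VitC+ 5hmC also shared little with H3K9me3, a mark of constitutive heterochromatin, at a ratio of 0.454, and VitC- 5hmC had 1.04 with VitC- H3K9me3. The lists differed in quality measures too. VitC- had 286747 5hmC peaks with a median fold of 4.70 over 148 Mb, and only 23.0% of the VitC+ 5hmC bases were in the VitC- list, while 84.3% of the VitC+ H3K27me3 bases were in the VitC- H3K27me3 list. The part of these differences in the ratios was not tested. Of the VitC+ 5hmC peaks on autosomes that did not touch H3K27me3, 47.5% overlapped a 5hmC peak of VitC+ Gulotm1Mae femur, as did 31.2% of those that touched it. Peaks that did not touch it were also longer (median 539 against 445 bp) and stronger (median fold 5.24 against 4.36). Shares matched for length or fold were not computed.

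At promoters the marks divided the genes into 4 classes. Of 20923 protein-coding genes, 12120 (57.9%) had a base of 5hmC and 5369 (25.7%) a base of H3K27me3 within 3 kb of the start site. Only 5hmC was present at 9480 (45.3%), only H3K27me3 at 2729 (13%), both at 2640 (12.6%) and neither at 6074 (29%). The 2640 with both compare with 3110 expected from the product of the shares, a ratio of 0.849. This counts a base of each mark anywhere in the window, and cannot be set against a ratio of shared bases. By shared bases the ratio was 0.348 at promoters and 0.434 across the genome. Of these 2640 promoters, 1583 carried the marks on separate bases and 1057 had a base in both. Their shared bases summed to 507 kb against 715 kb expected from the 2 covered shares of each promoter.

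The classes differed beyond the window that defined them. A peak that sets a class can run past that window, so part of the difference follows from the definition. From 3 to 30 kb around the start site, 5hmC covered on average 15.2% of the bases of genes with only 5hmC at the promoter and 3.78% of those with only H3K27me3. H3K27me3 covered 4.77% and 31.4%, respectively. Genes with both had intermediate 5hmC, 11.0%, and H3K27me3 of 25.2%. CG-rich promoters (observed over expected CG of at least 0.6 within 0.5 kb of the start) made up 68.5% of the 5hmC-only class, 27.6% of the H3K27me3-only class and 55.5% of the class with both. Within CG-rich and CG-poor promoters the ratio of both to expected was 0.860 and 0.946.

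The bone genes lay on the 5hmC side. Of the 6 osteoblast marker genes used to check the cell type, 5 had 5hmC within 3 kb of the start site, against 57.9% of all genes. All had between 12925 and 27990 bp of it within 30 kb. None had a base of H3K27me3 within 30 kb, a state shared by 44.5% of all genes. Expression of these cells was not analysed here, so this is the only check of the label. Runx2 (start site chr17:44814627) had 27990 bp of 5hmC within 30 kb, and Sp7 (chr15:102366968), the zinc finger factor that acts after Runx2, had 16215 bp. Dlx5, a homeodomain regulator of bone formation, had 16269 bp. Among the matrix genes, Alpl, the phosphatase needed for mineral deposition, had 22218 bp and Bglap, which encodes osteocalcin, 12925 bp. Dmp1, Ibsp and Spp1, neighbours on chromosome 5 that encode acidic proteins of mineralized matrix, had 12371, 21102 and 18050 bp, at start sites more than 60 kb apart. Each of these genes had 0 bp of H3K27me3 within 30 kb, although H3K27me3 covered 10.1% of both chromosome 17, which carries Runx2, and chromosome 6, which carries Dlx5. Col1a1, the α1 chain of type I collagen, also had none, and had 22282 bp of 5hmC within 30 kb but 0 bp within 3 kb.

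Sost was the exception among the 12 genes named first. It encodes sclerostin, the Wnt antagonist of osteocytes, and its promoter had 5070 bp of H3K27me3 and 103 bp of 5hmC. Within 30 kb of its start site (chr11:101967015) H3K27me3 covered 49087 bp and 5hmC 2882 bp, of which 2602 bp were inside H3K27me3. Msx2, a homeobox factor of early osteoblasts, had 638 bp of 5hmC at the promoter, and 2418 bp of 5hmC and 3848 bp of H3K27me3 within 30 kb with 0 bp shared.

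**Figure D3:**
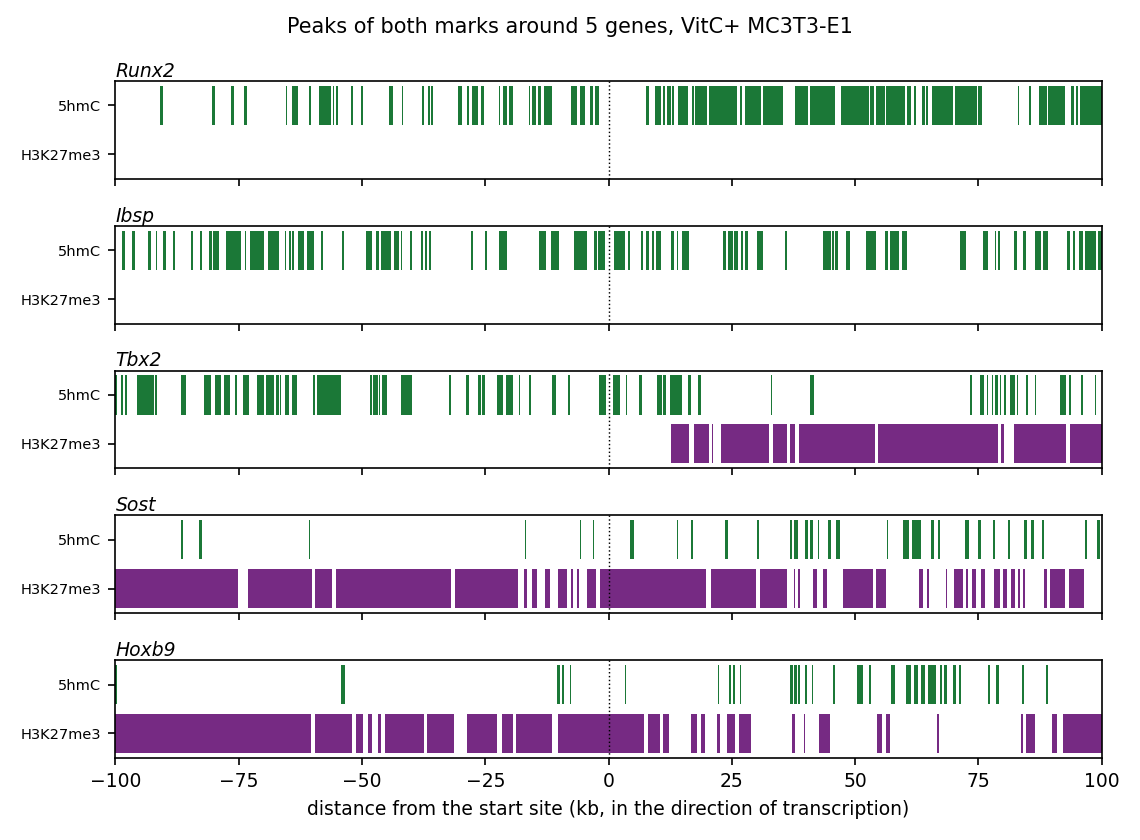
Peaks of 5hmC (green) and H3K27me3 (purple) in VitC+ cells within 100 kb of 5 start sites, by distance in kb in the direction of transcription. Around Runx2 and Ibsp 86.1 and 68.3 kb were in 5hmC and 0 kb in H3K27me3, around Tbx2 50.3 kb were in 5hmC and 77.8 kb in H3K27me3, which lies only on the 3′ side of the start and overlaps 5hmC there, and around Sost and Hoxb9 H3K27me3 covered 146 and 123 kb.

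Lists of genes gave the same division, and are described by counts beside the share of all genes. Of 24 osteoblast transcription factors, 20 had only 5hmC at the promoter, 3 (Foxc2, Tcf7 and Twist2) had both, Mef2c had neither and 0 had only H3K27me3, against 45.3%, 12.6%, 29% and 13% of all genes. Of 35 genes of bone matrix and mineralization, 27 had only 5hmC, 3 (Dkk1, Enpp1 and Sost) had both and 1 (Col13a1) only H3K27me3. Foxc2, Mef2c, Dkk1, Enpp1 and Col13a1 are named here after their values were seen. Their median 5hmC extent within 30 kb was 16640 and 17905 bp, against 3684 bp for all genes, and their median H3K27me3 extent was 170 and 0 bp, against 590 bp. Of 55 Bone60 genes, which the study chose for their bone-selective expression, 36 (65.5%) had only 5hmC and 10 (18.2%) neither, against 45.3% and 29% of all genes. Both marks were at 7 (12.7%) and only H3K27me3 at 2 (3.64%), against 12.6% and 13%. Cdh15, a cadherin of muscle and one of the 2, had 39694 bp of H3K27me3 within 30 kb. Across all genes, 51.2% had more bases of 5hmC than of H3K27me3 within 30 kb and 34% had fewer. The counts were 20 and 4 of the 24 bone transcription factors, and 30 and 5 of the 35 matrix genes.

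Regulators of other lineages lay on the H3K27me3 side. Of 124 developmental transcription factors of other lineages, 51 had only H3K27me3, 27 only 5hmC, 16 both and 30 neither, against 13%, 45.3%, 12.6% and 29% of all genes. Within 30 kb their medians were 9996 bp of H3K27me3 and 1128 bp of 5hmC. Vax2, a homeobox factor of the ventral eye, had 57508 and 2548 bp. Lhx2, a LIM homeobox factor of forebrain and eye, had 51449 bp of H3K27me3, and 5822 of its 6102 bp of 5hmC were inside it. Of 60 neuronal channels and receptors, 26 (43.3%) had neither mark, 22 (36.7%) only H3K27me3, 8 (13.3%) only 5hmC and 4 (6.67%) both. The single marks were nearly even in 2 other lists. Of 40 haematopoietic genes 13 (32.5%) had only H3K27me3, 11 (27.5%) only 5hmC and 9 (22.5%) both. Of 30 genes of skeletal muscle the counts were 11 (36.7%), 11 (36.7%) and 6 (20%). Among all genes these shares were 13%, 45.3% and 12.6%. Olfactory receptor genes mostly had neither mark (991 of 1103, or 89.8%, against 29% of all genes).

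The T-box genes Tbx2 and Tbx4 are neighbours on chromosome 11 and were on opposite sides. Tbx2, a transcriptional repressor, had 2650 bp of 5hmC and 0 bp of H3K27me3 within 3 kb of the start. Tbx4, a factor that specifies the hindlimb, had 5360 bp of H3K27me3 and 0 bp of 5hmC there. Within 100 kb of the Tbx2 start site 50.3 kb were in 5hmC, 77.8 kb in H3K27me3 and 9.10 kb in both.

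The 4 Hox clusters, which specify position along the body axis, were not alike. All 11 Hoxa promoters had 5hmC, 3 of them (Hoxa10, Hoxa11 and Hoxa13) with H3K27me3 as well, and the medians within 30 kb were 24806 bp of 5hmC and 487 bp of H3K27me3. In Hoxd, 6 of 9 promoters had only H3K27me3, 2 both and 1 only 5hmC, with medians of 1805 and 25686 bp. Of 10 Hoxb promoters 5 had only H3K27me3, with 6579 and 22766 bp, and of 9 Hoxc promoters 5 had only 5hmC, with 12873 and 546 bp. The clusters lie on chromosomes 6, 11, 15 and 2 for a to d, and the genes of 1 cluster share most of their 30 kb windows, so they are not independent of each other. Within Hoxb, 5hmC was highest around Hoxb3 (14055 bp) and H3K27me3 around Hoxb13 (56451 bp) and Hoxb9 (43524 bp). Within the Hoxa cluster, H3K27me3 covered 12841 bp within 30 kb of Hoxa13, where 2815 of the 3013 bp of 5hmC at the promoter were inside it. Hoxa13 and Hoxb3 are named after their values were seen.

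Signalling ligands carried both kinds of promoter. Of 61 ligands and antagonists of the Wnt, BMP, FGF and hedgehog pathways, 23 (37.7%) had only 5hmC, below the 45.3% of all genes. Only H3K27me3 was at 19 (31.1%) and both at 13 (21.3%), above the 13% and 12.6% of all genes. Wnt7a and Wnt3, ligands of limb and early axis patterning, had 54974 and 51655 bp of H3K27me3 within 30 kb, with 614 and 327 bp of 5hmC, all of it inside H3K27me3. Gdf6, a BMP ligand of joint formation, had both, 16168 bp of 5hmC and 26904 bp of H3K27me3 with 5860 bp shared. Genes for the enzymes of the marks often had 5hmC at the promoter, and H3K27me3 about as often as all genes. Among 21 genes of PRC2, the TET enzymes and related factors, 15 (71.4%) had only 5hmC and 0 only H3K27me3, against 45.3% and 13% of all genes. Both marks were at 5 (23.8%, against 12.6%), namely Dnmt3a, Dnmt3b, Phf19, Tet1 and Tet3, of which Dnmt3a, Dnmt3b and Tet1 are named after their values were seen. H3K27me3 was thus at 23.8% of these promoters, near the 25.7% of all genes. Its median extent within 30 kb was 2272 bp, against 590 bp for all genes. The promoter of Phf19, a PRC2 accessory factor, was wholly in H3K27me3 (6001 bp). Tet3, 1 of the enzymes that make 5hmC, had 18556 bp of 5hmC and 17804 bp of H3K27me3 within 30 kb. Of 30 chondrocyte and adipocyte genes 17 (56.7%) had only 5hmC and 7 (23.3%) both, against 45.3% and 12.6% of all genes. Among the 7 was Col2a1, the cartilage collagen, with 1313 bp of 5hmC at the promoter, all inside H3K27me3.

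Genes used by every cell also often had only 5hmC, so 5hmC without H3K27me3 was not particular to bone genes. Only 5hmC was present at 45 of 58 ribosomal protein genes (77.6%) and 45 of 68 genes of the proteasome and oxidative phosphorylation (66.2%), against 45.3% of all genes. Of 30 cell cycle genes 17 (56.7%) had only 5hmC and 10 (33.3%) neither mark, nearer to the 45.3% and 29% of all genes. The median 5hmC within 30 kb was 6549, 5265 and 3907 bp in these lists, below the 16640 and 17905 bp of the bone lists. CG-rich promoters made up 96.6%, 94.1% and 86.7% of the ribosomal, proteasome and oxidative phosphorylation, and cell cycle lists, against 49.5% of all genes. They made up 75% of osteoblast factors, 22.9% of matrix genes and 76.2% of the PRC2 and TET list. Shares matched for CG content were not computed. Some housekeeping promoters had H3K27me3 peaks. Of the ribosomal list 8 (13.8%) had H3K27me3 in the deposited list and 4 (6.90%) at a −log10 q of at least 2, against 25.7% and 10.5% of all genes. At the same threshold 37 of the 124 factors of other lineages, 2 of the 24 osteoblast factors and 1 of the 35 matrix genes kept H3K27me3.

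**Figure D4:**
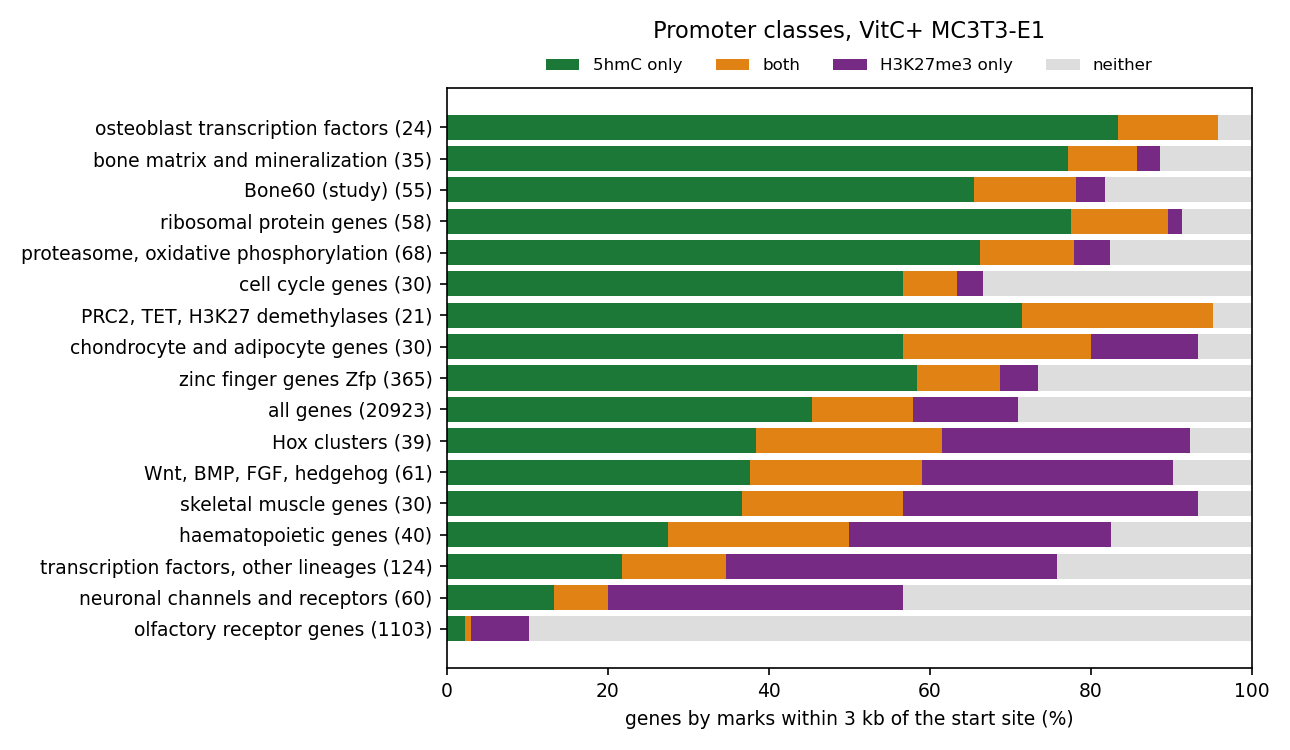
The percentage of genes in each list (number of genes in brackets) with only 5hmC, both marks, only H3K27me3 or neither within 3 kb of the start site in VitC+ cells. Only 5hmC ranges from 83.3% of osteoblast transcription factors to 2.27% of olfactory receptor genes, with 45.3% of all genes, and only H3K27me3 reaches 41.1% of transcription factors of other lineages.

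The extremes over all genes, with start sites more than 60 kb apart, show each state at its fullest. With no H3K27me3 within 30 kb, the widest 5hmC was at Adgrl2, an adhesion receptor, with 54602 bp. It was followed by Supt3 (45368 bp), whose window overlaps that of Runx2, Rai14 (45231 bp), B4galt5 (44070 bp), Fto (40967 bp), an RNA demethylase, Scd2 (40421 bp), a fatty acid desaturase, Xpnpep1 (40381 bp) and Pawr (40096 bp). Without a base of 5hmC, the widest H3K27me3 was at Chil1, which encodes a chitinase-like protein, with 60001 bp. Clec4f (59339 bp), a receptor of Kupffer cells, Grip2 (59307 bp), Prss29 (58899 bp), Slco4a1 (58009 bp), Cntn2 (56747 bp), Kcnip3 (56478 bp) and Otof (56376 bp) followed. The most bases in both marks were around Cdrt4 (11585 bp), Ccdc40 (11444 bp), Mgll (9675 bp), Scube3 (9063 bp), Ngfr (8994 bp), Gpam (8515 bp), Adrb1 (8504 bp) and Habp2 (8260 bp). Around Ngfr, the low-affinity nerve growth factor receptor, 8994 of 20128 bp of 5hmC were inside H3K27me3, and all 2812 bp of 5hmC at its promoter were.

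Expression in femur differed between the classes. RPKM values of VitC+ Gulotm1Mae femur were available for 20209 of the genes in 3 libraries. The median RPKM of genes with only 5hmC at the promoter in MC3T3-E1 cells was 4.86, 6.68 and 7.35 in the 3 libraries. It was 1.76, 2.38 and 2.72 for both marks, 0.0793, 0.102 and 0.102 for only H3K27me3, and 0, 0 and 0.00944 for neither. The order of the 4 classes was the same in each library. When genes under an RPKM of 1 in every library were left out, the order changed. Over values combined across the libraries, medians were then 8.25 for only 5hmC, 6.398 for neither, 5.85 for both and 4.38 for only H3K27me3. Without this filter the combined median for only 5hmC was 6.34. Genes with an RPKM of at least 1 made up 79.9 to 83.4% of the 5hmC-only class and 25.7 to 29.2% of the H3K27me3-only class. Among promoters with both, those with a base in both had medians of 0.729, 0.842 and 0.920, below the 2.87, 3.99 and 4.45 of those with the marks on separate bases. They also had more H3K27me3, a median of 2574 against 870 bp.

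Individual genes went against this order. The femurs had been flushed and minced before RNA extraction, and how much marrow remained is not given in the sources used here. Mpo, the peroxidase of neutrophil granules, had 51424 bp of H3K27me3 within 30 kb in MC3T3-E1 cells and RPKM values of 318, 745 and 481 in femur. Sost, under H3K27me3 in the cell line, had 27.4, 18.3 and 11.4 in femur, where osteocytes are present. Ibsp, with only 5hmC at the promoter and 0 bp of H3K27me3 within 30 kb, instead followed the order, with 317, 640 and 1040.

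**Figure D5:**
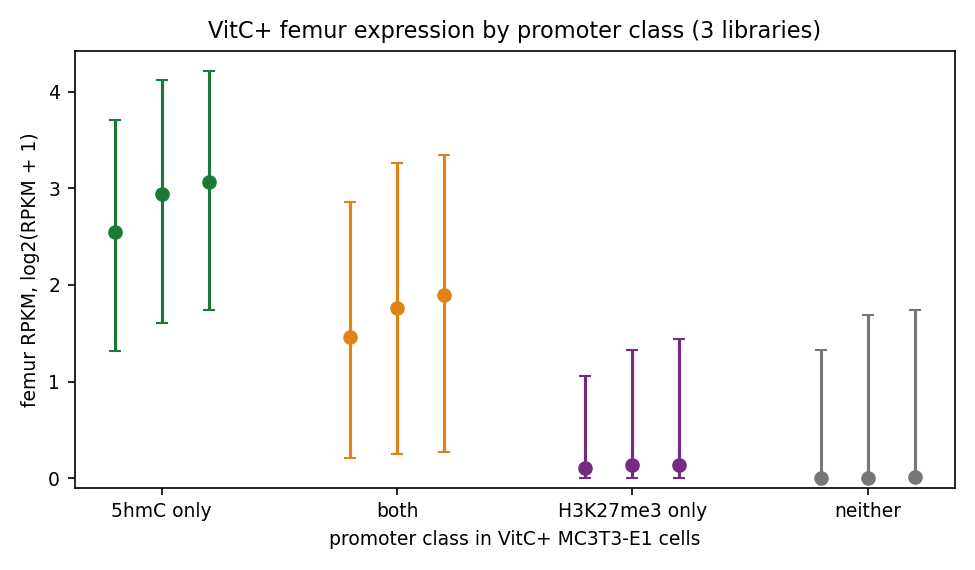
Femur expression, log2(RPKM + 1), of genes by promoter class in VitC+ MC3T3-E1 cells, with points for the median of a class in each of the 3 VitC+ femur libraries and bars from the lower to the upper quartile over genes. Medians of genes with only 5hmC (4.86 to 7.35 RPKM) lie above those with both (1.76 to 2.72) and with only H3K27me3 (0.0793 to 0.102).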

How the data were processed

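5hmC was measured by hMeDIP-seq and H3K27me3 and H3K9me3 by ChIP-seq, and the submitters' processing notes name Trim Galore 0.4.3.1, BWA 0.7.15.1 and MACS2 2.1.1.20160309.6 with the mm10 build. The authors deposited MACS2 peaks, 1 list per mark and group, with fold enrichment (a ratio over local background), −log10 p and −log10 q values and, for 5hmC, a pileup signal at the summit. The methods state an FDR of 0.05, yet the lowest −log10 q of the H3K27me3 list is 1.01. The lists give no read numbers, so depth is unknown. RPKM values of 3 femur libraries were used as deposited by the authors, with STAR 2.6.0b-1 named for alignment.

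Peaks on 20 chromosomes were intersected with Python 3.11.15, numpy 2.4.6 and pandas 2.3.3 (scipy 1.17.1 for exact binomial intervals, matplotlib 3.10.9 for figures). Expected values are products of covered shares, and displacements were fixed distances with no random draw. Interval steps gave the same counts as direct counting in 20 of 20 simulated pairs of lists. Start sites are the most 5′ curated RefSeq transcript starts of GRCm38.p6. Members and gene lists were chosen with earlier results of these data known. Bone60 holds the 55 names found in the source data of the study. Named genes are 12 bone genes, up to 4 per list with the most bases of both marks or of 1 mark within 30 kb, and 8 genes each with the most of both, of H3K27me3 without 5hmC and of 5hmC without H3K27me3. The window at Sp7 touches an exon and is not shown, and results for some genes that the rule names are not reported here. Alternatives changed thresholds, overlap, windows, chromosomes and libraries. The femur lists of other groups and all other libraries were not used here.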

Additional observations from a re-analysis of the deposited data

How the results depend on the processing

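No paired analysis was possible because each mark has 1 list and no value comes from a test across samples. The ratio of shared to expected bases, 0.434, was 0.451 with H3K27me3 peaks of −log10 q of at least 2, 0.228 with 5hmC peaks of fold of at least 6, 0.434 without peaks that overlap H3K9me3, 0.411 on autosomes and 0.320 with the expectation taken within 100 kb of a peak, and 0.378 with the expectation per chromosome, an alternative chosen after seeing the data. It stayed below 1 in all of these. The share of 5hmC peaks on H3K27me3, 4.74%, was 1.86% with the stricter H3K27me3 list, 2.90% with the stricter 5hmC list, 4.03% without H3K9me3 and 3.39% when 50% of the peak had to overlap. The share of H3K27me3 peaks on 5hmC, 11.2%, was 19.5%, 3.15%, 10.5% and 2.36% in this order. The stricter H3K27me3 list held 15548 peaks over 61.8 Mb, so both shares also follow the number and length of the peaks kept. Displaced shares were not computed for these settings. The ratio at promoters, 0.849, was 0.658 with the stricter 5hmC list, 0.603 in a window of 1 kb and 0.946 in CG-poor promoters. It reversed to 1.13 when a peak midpoint within 30 kb counted, a window that takes in the neighbourhoods described above. Genes with both marks numbered 800 in a window of 1 kb and 1057 with the stricter H3K27me3 list, instead of 2640, and genes with only H3K27me3 numbered 1139 with the latter instead of 2729, as fewer peaks and bases count by construction. Leaving out each femur library in turn gave median RPKM of 5.84 to 7.03 for only 5hmC, 2.14 to 2.598 for both, 0.0940 to 0.109 for only H3K27me3 and 0.0113 to 0.0120 for neither. Among genes with RPKM of at least 1 in at least 1 library the medians were 8.25, 5.85, 4.38 and 6.398 in the same order, so the lowest was then only H3K27me3 and neither came second. The intervals cover counting error only, and the q-values of H3K27me3, with a median −log10 of 1.61, limit how far a weak peak can be told from background.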

Other observations

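Genes of the Zfp zinc finger family, DNA-binding factors that often sit in tandem clusters, had only 5hmC at 213 of 365 promoters, both marks at 38 and only H3K27me3 at 17, against 45.3%, 12.6% and 13% of all genes. Their median extent of 5hmC within 30 kb was 2463 bp, against 3684 bp for all genes. Zfp637, with 9361 bp of 5hmC and 25367 bp of H3K27me3 within 30 kb, had 5476 bp in both, and 0 bp of H3K27me3 within 3 kb of its start site. Zfp467 had 4086 bp of H3K27me3 at the promoter, over all 506 bp of its 5hmC.

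Among muscle genes, Casq1, the calcium-binding protein of the sarcoplasmic reticulum, had 1673 bp of 5hmC at the promoter with 1510 bp of it inside H3K27me3. Cacna1s, the voltage sensor of muscle contraction, had 6001 bp of H3K27me3 and 0 bp of 5hmC there. Of the haematopoietic genes, Spi1, the factor of myeloid cells, had 14778 bp of 5hmC and 9635 bp of H3K27me3 within 30 kb. Hba-a1, an α-globin gene with a near-identical copy beside it, had 4058 and 42281 bp. Only 115 of 1103 olfactory receptor genes had more 5hmC than H3K27me3 within 30 kb and 175 had more H3K27me3, while among all genes these shares were 51.2% and 34%. The other 813 were equal, most with 0 bp of either.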
